A study of Mus musculus with 4 samples.

Results

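Of the 24378 gene rows counted in each well, 8 are described here, the receptors *Notch1*, *Notch2* and *Notch3*, the ligands *Jag1*, *Jag2* and *Dll1*, and the targets *Hes1* and *Hey1*. They were chosen by name as members of the Notch pathway, and each has 1 row in every table. The cells came from the back skin of 2 female Ivl-CreERT2/R26-tdTomato mice at postnatal day 57, whose tamoxifen injection (10 µg per g, 2 days before collection) switched on the red protein tdTomato in cells with an active *Ivl* promoter. The dose is that of the labels, and the study's methods state a higher one. *Ivl* encodes involucrin, a protein of differentiating keratinocytes. Live cells of the basal layer between the hair follicles (CD49f+, LY6A+, CD34-negative) were sorted into traced (Tom+) and non-traced (Tom-) cells, and both groups carried the alleles and received tamoxifen, so no untreated or reporter-free animal is among the samples. There were 4 libraries, Tom+ 1, Tom+ 2, Tom- 1 and Tom- 2, each from 1 Fluidigm C1 chip of 96 wells, and the labels do not say which mouse a chip came from, so the spread between 2 libraries of a group may be technical in part.

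Notch receptors are single-pass membrane proteins that are activated by ligands on a neighbouring cell. Ligand binding exposes the receptor to cleavage by ADAM proteases and then by γ-secretase, and the freed intracellular part enters the nucleus, joins the DNA-binding protein RBPJ and Mastermind coactivators, and switches on genes such as the Hes and Hey repressors. In the epidermis, Notch signalling is known as a pathway that favours the exit of basal keratinocytes into differentiation, and *Hes1* is one of its best known targets there.

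The 161 of 384 wells with at least 2000 gene UMIs (unique molecular identifiers, each marking 1 captured mRNA molecule) were kept as cells, 35 in Tom+ 1, 58 in Tom+ 2, 20 in Tom- 1 and 48 in Tom- 2. Their summed depth was 157281, 305407, 81630 and 184578 UMIs in the same order. The tdTomato row, a check of the sort labels, had a UMI in 16 of 35 and 29 of 58 cells of the Tom+ libraries and in 0 of 20 and 3 of 48 cells of the Tom- libraries. Basal keratinocyte markers (*Krt14*, *Krt5*, *Itga6* and others) summed to between 20371 and 31569 CPM (UMIs scaled to a total of 1000000) in each library, and no more than 12.7 CPM came from the fibroblast, endothelial or melanocyte lists. Markers of T cells (0 to 157 CPM) and Langerhans cells (10.8 to 110 CPM) were present at low levels. Markers of the infundibulum of the follicle gave more, 432 to 1739 CPM, and 10 cells carried at least 3 of them. Several markers of one of these types were carried by 16 cells, 11 of them in Tom+ 2. The sebaceous list gave 86.7 to 235 CPM and the list of the follicle bulge 19.1 to 110 CPM, and 0 cells carried at least 3 markers of either.

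The promoters of *Notch1*, the most abundant receptor, and of *Notch3*, a sparse one whose values ran otherwise, are shown first, because *Hes1*, the best measured target here, encodes a repressor that binds N-box sequences. RefSeq (GRCm38.p6) gives a window from 250 bases before to 50 bases after the transcript start for 6 of the 8 members, all but *Hes1* and *Hey1*. GRCm38 is also the build in the submitters' processing notes. Capitals mark the N-box, searched as CACNAG on both strands.
Notch1, chr2:26503773-26504072, minus strand: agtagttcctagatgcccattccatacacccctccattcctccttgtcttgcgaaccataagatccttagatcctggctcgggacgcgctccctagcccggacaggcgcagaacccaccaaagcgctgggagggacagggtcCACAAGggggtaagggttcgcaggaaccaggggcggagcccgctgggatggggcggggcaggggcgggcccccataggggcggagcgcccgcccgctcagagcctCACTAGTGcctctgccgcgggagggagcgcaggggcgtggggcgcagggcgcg
Notch3, chr17:32166841-32167140, minus strand: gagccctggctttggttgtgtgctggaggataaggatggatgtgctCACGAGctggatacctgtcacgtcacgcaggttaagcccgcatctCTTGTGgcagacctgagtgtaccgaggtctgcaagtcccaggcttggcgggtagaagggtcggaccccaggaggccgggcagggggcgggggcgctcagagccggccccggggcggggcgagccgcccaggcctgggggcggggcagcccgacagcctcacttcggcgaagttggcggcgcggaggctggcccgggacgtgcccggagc
The *Notch1* window holds 3 matches, which begin at -108, -3 and -1 from the start, the last pair overlapping on opposite strands, and the *Notch3* window holds 2, at -204 and -159. *Notch2* has 1, at -247, and *Dll1*, which has 2 windows, has 1 in the second, at 13. No match lies in the *Jag1* and *Jag2* windows. Of all 32851 promoter windows, 42.5% hold the motif, so these matches are a description of the letters only. The core of the RBPJ site, TGGGAA on either strand, is in 25.6% of all windows and in none of the 7 windows of the members.

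The gene bodies lie, in the same build, at chr2:26457902-26503822 (*Notch1*), chr3:98013538-98150367 (*Notch2*), chr17:32120820-32166896 (*Notch3*), chr2:137081451-137116520 (*Jag1*), chr12:112907803-112929812 (*Jag2*), chr17:15367354-15376932 (*Dll1*), chr16:30065357-30067796 (*Hes1*) and chr3:8663359-8667038 (*Hey1*).

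Transcripts of 7 of the 8 members were found in these basal cells, and *Hey1* was not detected. *Hes1* (220 UMIs over the 4 libraries) and *Notch1* (214) were the most abundant, *Jag1* (105) followed, and *Jag2* (34), *Notch3* (33), *Notch2* (26) and *Dll1* (19) were sparse. Because the chemistry counts the 5′ end of each molecule once, CPM was compared between genes without a correction for length. For *Hey1*, 0 of 728896 UMIs allows a level of up to 4.12 CPM, and 0 of 161 cells allows a share of cells with a UMI of up to 1.86%. Both limits cover counting error only and set no limit on the share of cells that express the gene.

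*Notch1*, the main receptor of the epidermis, stood at 445 CPM in Tom+ 1, 246 in Tom+ 2, 306 in Tom- 1 and 238 in Tom- 2. Tom+ 1 was the highest library and the groups overlapped. The 95% counting intervals of the Tom+ libraries, 347 to 562 and 193 to 308 CPM, did not meet, though such intervals leave out the spread between cells and chips.

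*Notch2*, a second receptor of the same architecture, stood at 50.9 and 42.6 CPM in the Tom+ libraries and at 12.3 and 21.7 CPM in the Tom- libraries. *Notch3*, a smaller receptor of the family, stood at 50.9 and 65.5 CPM against 24.5 and 16.3 CPM. Both Tom+ libraries were above both Tom- libraries for each gene, but the Tom- values rest on 1 and 4 UMIs of *Notch2* and on 2 and 3 of *Notch3*. Pooled over libraries, the Tom+ to Tom- ratio of *Notch2* was 2.42, with a counting interval of 0.887 to 8.2, and that of *Notch3* was 3.22 (1.23 to 10.7); these intervals leave out the spread between libraries.

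*Jag1*, the ligand with the most UMIs, was nearly level, at 127 and 144 CPM in Tom+ and 172 and 146 CPM in Tom-. Tom+ 2 and Tom- 2 lay far inside each other's counting intervals, 105 to 193 and 96.4 to 213 CPM. *Jag2*, a ligand of the same family, stood at 31.8 and 29.5 CPM in Tom+ and at 73.5 and 75.8 CPM in Tom-. The groups did not overlap, but the values rest on 5 and 9 UMIs in Tom+ and on 6 and 14 in Tom-. Their counting intervals overlapped, at 10.3 to 74.2 and 13.5 to 55.9 CPM against 27 to 160 and 41.5 to 127 CPM. The pooled Tom+ to Tom- ratio was 0.403 (counting interval 0.188 to 0.838). *Dll1*, a Delta-type ligand, gave 19.1 and 22.9 CPM against 36.8 and 32.5 CPM, from 3 to 7 UMIs a library, and its pooled ratio of 0.639 had an interval of 0.233 to 1.78.

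*Hes1*, a bHLH repressor and direct Notch target, stood at 318 CPM in Tom+ 1, 439 in Tom+ 2, 233 in Tom- 1 and 92.1 in Tom- 2. Both Tom+ libraries were above both Tom- libraries, and Tom- 2 was far below the other 3. The pooled ratio was 2.94, with a counting interval of 2.05 to 4.33.

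**Figure D1:**
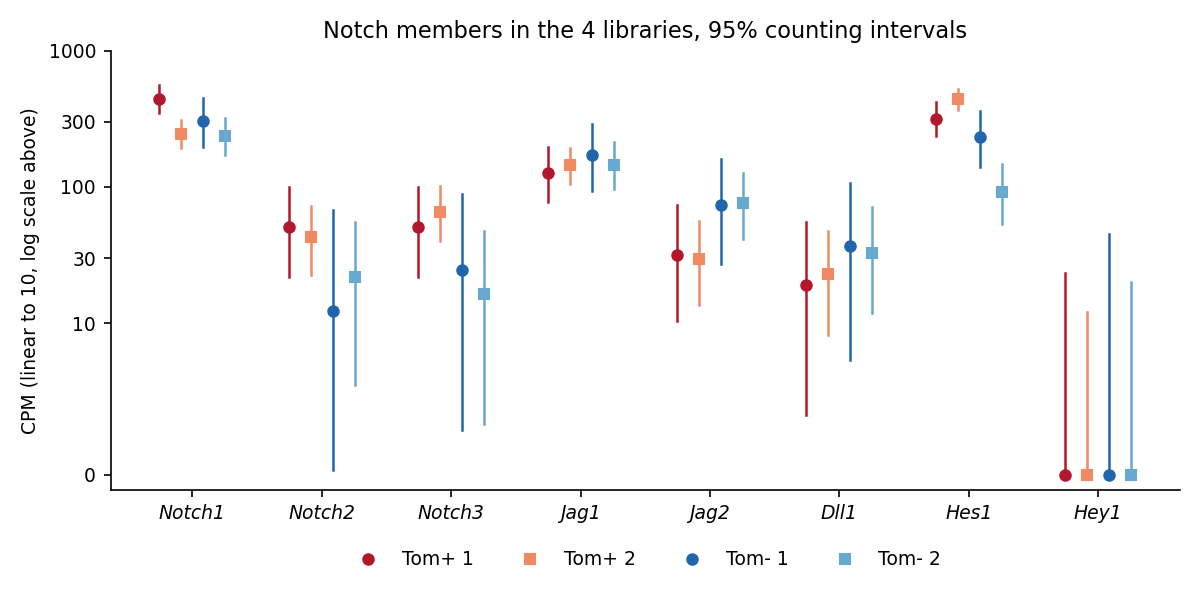
CPM of the 8 members (vertical axis, linear to 10 and on a log scale above) in the libraries Tom+ 1, Tom+ 2, Tom- 1 and Tom- 2, from UMIs summed over kept cells; points are library values and bars are exact 95% Poisson intervals. *Jag2* is lower and *Hes1* higher in both Tom+ than in both Tom- libraries, *Notch1* overlaps, and *Hey1* is at 0 in every library.

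In Tom+ cells the order of the mean levels was *Hes1* (378 ± 85.5 CPM, SD, n = 2), *Notch1* (345 ± 141), *Jag1* (136 ± 12), *Notch3* (58.2 ± 10.3), *Notch2* (46.7 ± 5.87), *Jag2* (30.6 ± 1.64), *Dll1* (21.0 ± 2.72) and *Hey1* (0). *Hes1* did not differ from *Notch1*, nor *Notch3* from *Notch2*, beyond the spread of the libraries. In Tom- cells *Notch1* came first (272 ± 48.0 CPM, SD, n = 2), followed by *Hes1* (162 ± 99.5), *Jag1* (159 ± 17.8), *Jag2* (74.7 ± 1.66), *Dll1* (34.6 ± 3), *Notch3* (20.4 ± 5.83) and *Notch2* (17.0 ± 6.66), and the neighbours that overlapped were *Hes1* with *Jag1* and *Notch3* with *Notch2*. Counting intervals of the pooled UMIs also overlapped between every pair of neighbours from *Notch3* to *Dll1* in Tom+, and from *Hes1* to *Notch2* in Tom-. Among the sparse members, the receptors preceded the ligands in Tom+ cells and followed them in Tom- cells, within these overlapping intervals.

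On CPM, 3 of the 7 detected members (*Notch2*, *Notch3* and *Hes1*) were higher in both Tom+ than in both Tom- libraries, where 20.3% of the 7484 genes with at least 10 UMIs were. Another 3 (*Jag1*, *Jag2* and *Dll1*) were lower in both Tom+ libraries, against 16.2% of the genes. These counts changed with the setting. With every cell thinned at random to 2000 UMIs, *Notch3* alone remained among the higher members, since *Hes1* then gave 0.6 and 1.02 UMIs per cell in Tom+ and 0.75 and 0.188 in Tom-, and without the deepest 5% of cells *Jag2* alone remained among the lower ones.

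The first comparison asks whether traced cells, which had used the *Ivl* promoter while still in the basal layer, differ in Notch transcripts from non-traced neighbours. None of the 4 members that passed the filter on low counts was called by the quasi-likelihood test of edgeR, adjusted by the Benjamini-Hochberg method, where 1.21% of the 3070 genes tested were called. The log2 fold change of *Hes1* was 1.35 (SE 0.40), with an unadjusted p of 0.00315 and an adjusted p of 0.131 in this edgeR test, and *Hes1* was the only member with an unadjusted p under 0.05. For *Jag2* the log2 fold change was -1.32 (SE 0.78, edgeR adjusted p = 0.657), for *Notch1* 0.29 (SE 0.35, edgeR adjusted p = 0.942) and for *Jag1* -0.23 (SE 0.40, edgeR adjusted p = 0.956). DESeq2's Wald test and limma-voom called none of the members either. *Notch2*, *Notch3* and *Dll1* were too sparse for the filter, and without it their log2 fold changes were 1.37 (SE 0.92), 1.69 (SE 0.86) and -0.56 (SE 0.96), each with an edgeR adjusted p of 0.905.

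The *Hes1* call changed with the libraries and the model. Without Tom- 1, which leaves Tom- 2 alone in its group, *Hes1* passed the test and its log2 fold change was 1.96. The log2 fold change was 1.60 without Tom+ 1, 1.06 without Tom+ 2 and 0.79 without Tom- 2, so it kept its sign. With thinned counts in the sums it was 1.02 (edgeR adjusted p = 0.525). Over all 14 alternatives the edgeR, DESeq2 or limma adjusted p lay between 0.00348 and 0.671. The other one that passed kept all 4 libraries and added the run tag of the titles as a block (log2 fold change 1.38, edgeR adjusted p = 0.00348). Each tag is shared by 1 Tom+ and 1 Tom- library, but the labels do not say that a tag pairs libraries. The infundibulum and T cell lists also had their highest sums in Tom+ 2, the library with the most *Hes1*. Not every marker followed its list, and *Sostdc1* of the infundibulum had 37 UMIs in Tom+ 2 and 47 in Tom- 2. The infundibulum list (5 of 5 markers detected) summed to 432 and 1739 CPM in Tom+ and to 1078 and 997 CPM in Tom-, and the T cell list (5 of 5) to 12.7 and 157 CPM and to 0 and 125 CPM. The 16 cells with several such markers held 32 of the 220 *Hes1* UMIs. Without these cells *Hes1* was still higher in both Tom+ than in both Tom- libraries. Its log2 fold change was then 1.41 (edgeR adjusted p = 0.0789).

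**Figure D2:**
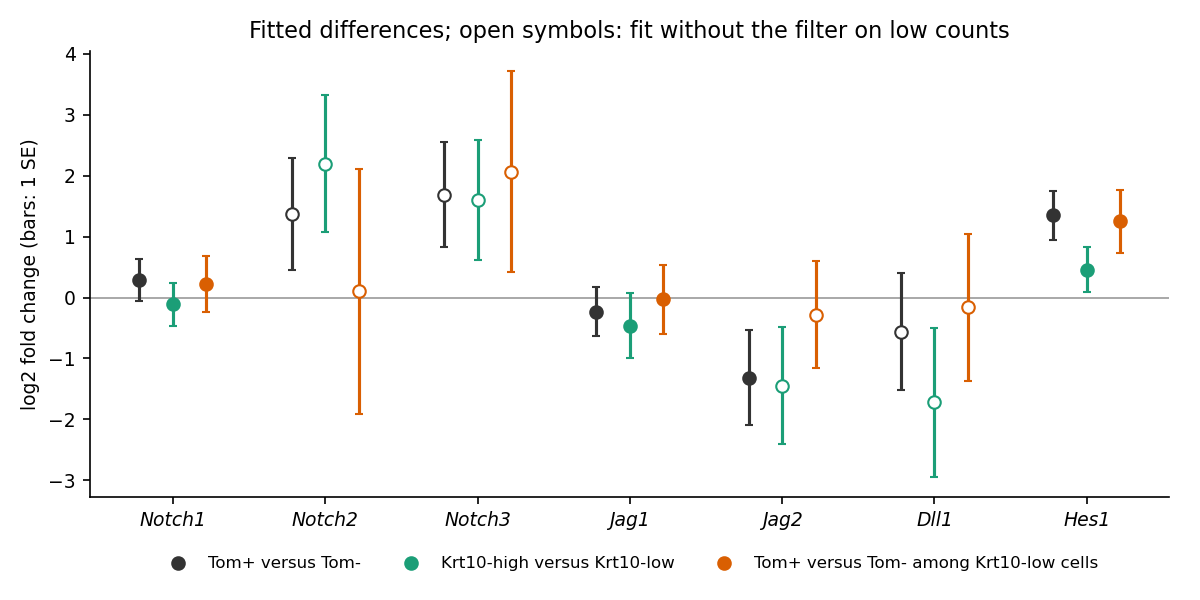
Fitted log2 fold changes (vertical axis, bars of 1 SE) of 7 members in 3 comparisons, black for Tom+ versus Tom-, green for *Krt10*-high versus *Krt10*-low cells and orange for Tom+ versus Tom- among *Krt10*-low cells; open symbols come from the fit without the filter on low counts. No member passed the adjusted threshold, and *Hes1* in Tom+ versus Tom- (1.35) lies farthest from 0 in units of its error.

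*Krt10* encodes a keratin that is switched on as basal cells start to differentiate, so the cells were also classed by it. After thinning to 2000 UMIs, the 68 cells with at least 6 *Krt10* UMIs were called *Krt10*-high and the other 93 *Krt10*-low. The high class held 25, 37, 3 and 3 cells of Tom+ 1, Tom+ 2, Tom- 1 and Tom- 2, so values for high cells of the Tom- libraries rest on 3 cells each. Median thinned *Krt14* was 1.5 UMIs in high and 30 in low cells, and median *Krtdap*, a later differentiation gene, was 12 and 0. The class is a range of one gene and not a cell type, with 11 cells 1 or 2 UMIs under the cut-off and 9 cells at it or 1 UMI above.

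None of the 3 members that passed the filter (*Notch1*, *Jag1* and *Hes1*) was called between *Krt10*-high and *Krt10*-low cells, where edgeR called 7.19% of 1905 genes. The log2 fold changes were 0.46 for *Hes1* (SE 0.37, edgeR adjusted p = 0.603), -0.11 for *Notch1* (SE 0.35, edgeR adjusted p = 0.926) and -0.46 for *Jag1* (SE 0.53, edgeR adjusted p = 0.759). None of these 3 had an unadjusted p under 0.05, and neither DESeq2 nor limma-voom called one. Without the filter, *Notch2* had a log2 fold change of 2.20 (SE 1.12, with an unadjusted p of 0.0492 in edgeR), *Notch3* of 1.60 (SE 0.99), *Jag2* of -1.45 (SE 0.96) and *Dll1* of -1.72 (SE 1.22), all with an edgeR adjusted p of 0.982.

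Within libraries, *Notch2* gave 76.3 CPM in high and 0 in low cells of Tom+ 1, 52.5 and 20.9 in Tom+ 2, 59.4 and 0 in Tom- 1, and 78.2 and 17.5 in Tom- 2. *Notch3* gave 66.7 and 19.1, 71.6 and 52.2, 119 and 0, and 78.2 and 11.6 CPM in the same order. Both receptors were thus higher in the *Krt10*-high cells of all 4 libraries, a pattern that 5.97% of the genes with at least 10 UMIs had. In the Tom- libraries, however, the high cells contributed 1 UMI of *Notch2* each and 2 and 1 UMIs of *Notch3*.

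*Notch1* did not follow the other receptors. It gave 429 CPM in high and 477 in low cells of Tom+ 1, 258 and 219 in Tom+ 2, 238 and 324 in Tom- 1, and 235 and 239 in Tom- 2, and the counting intervals of the classes overlapped in every library. It was higher in high cells of 1 library and lower in those of 3.

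*Jag2* ran the other way in 3 of the 4 libraries, with 9.53 CPM in high and 76.4 in low cells of Tom+ 1, 19.1 and 52.2 in Tom+ 2, and 0 and 81.5 in Tom- 2. Tom- 1, with 119 and 61.7 CPM from 2 and 4 UMIs, was the exception. *Jag1* was lower in high cells of 3 libraries (114 and 153, 129 and 177, and 59.4 and 201 CPM) and higher in those of Tom- 2 (235 and 140). *Dll1* had no UMI in the high cells of Tom+ 1, Tom- 1 and Tom- 2, and gave 23.9 and 20.9 CPM in Tom+ 2. No ligand was lower in high cells of all 4 libraries, a pattern of 10.4% of the genes.

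*Hes1* gave 362 CPM in high and 229 in low cells of Tom+ 1, 463 and 386 in Tom+ 2, 416 and 185 in Tom- 1, and 78.2 and 93.1 in Tom- 2, from 1 UMI in the high cells of the last. It was higher in high cells of 3 libraries, and the counting intervals overlapped in all 4. Cells with 1 to 5 *Krt10* UMIs gave 133, 432, 242 and 167 CPM of *Hes1* in Tom+ 1, Tom+ 2, Tom- 1 and Tom- 2, and cells with none gave 268, 0, 139 and 64.6 CPM. The 2 cells without *Krt10* in Tom+ 2 are too few to read. In both Tom- libraries the level was higher in cells with 1 to 5 *Krt10* UMIs than in cells with none, and in Tom+ 1, where the middle class held 2 cells, it was lower. The Tom- 1 levels rest on 7 *Hes1* UMIs in 8 cells against 5 UMIs in 9 cells. Those of Tom- 2 rest on 8 UMIs in 8 cells against 8 UMIs in 37 cells.

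Because traced libraries hold more *Krt10*-high cells, Tom+ and Tom- were also compared among *Krt10*-low cells alone. The low class does not hold *Krt10* level between sorts. Cells with 0 *Krt10* UMIs were 8 of 10 low cells in Tom+ 1 and 2 of 21 in Tom+ 2. In Tom- 1 they were 9 of 17 and in Tom- 2 37 of 45. No member of the 3 tested passed, where edgeR called 0.607% of 1318 genes. *Hes1* had a log2 fold change of 1.25 (SE 0.51) with an unadjusted p of 0.0144 and an edgeR adjusted p of 0.552, from 229 and 386 CPM in the Tom+ and 185 and 93.1 CPM in the Tom- libraries. With a library left out it ranged from 0.75, without Tom+ 2, to 1.64, without Tom- 1, and was 0.81 without Tom- 2. With the *Krt10* cut-off at 3 UMIs it was 0.86 (edgeR adjusted p = 0.824). *Notch1* had 0.22 (SE 0.46) and *Jag1* -0.03 (SE 0.57), both with an edgeR adjusted p of 0.994. DESeq2 and limma-voom called no member here.

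The class effect did not pass a test of a difference between sorts for any of the 3 members, where edgeR called 0.367% of 1905 genes. The interaction on the log2 scale was 0.62 (SE 0.79, edgeR adjusted p = 0.95) for *Notch1*, 0.16 (SE 1.13, edgeR adjusted p = 1) for *Jag1* and -0.07 (SE 0.80, edgeR adjusted p = 1) for *Hes1*, none with an unadjusted p under 0.05. With 3 high cells in each Tom- library, the errors are large enough to leave a several-fold difference undetected.

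Per cell, at 2000 UMIs, *Notch1* and *Hes1* were seen in more cells than any other member in each library but Tom- 2, where *Jag1* was seen as often as *Hes1*. *Notch1* was seen in 18 of 35 cells of Tom+ 1 (51.4%, 95% Clopper-Pearson interval 34.0 to 68.6%), in 25 of 58 of Tom+ 2 (43.1%, 30.2 to 56.8%), in 11 of 20 of Tom- 1 (55%, 31.5 to 76.9%) and in 12 of 48 of Tom- 2 (25%, 13.6 to 39.6%). *Hes1* was seen in 14 of 35 (40%, 23.9 to 57.9%), 31 of 58 (53.4%, 39.9 to 66.7%), 10 of 20 (50%, 27.2 to 72.8%) and 7 of 48 cells (14.6%, 6.07 to 27.8%). Tom- 2 was the lowest library for both genes, and the Tom+ values lay on either side of that of Tom- 1 or below it. For *Hes1* the mean share in Tom+ minus that in Tom- was 14.4 points. Without Tom- 2 this difference was -3.28 points, and without Tom- 1 it was 32.1 points. At full depth the shares of *Hes1* were 54.3%, 74.1%, 55% and 18.8%, and those of *Notch1* were 71.4%, 58.6%, 65% and 37.5%, with median depths of 4047, 4524.5, 3877 and 3225 UMIs.

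*Jag1* was seen in 20%, 19.0%, 25% and 14.6% of cells in the order Tom+ 1, Tom+ 2, Tom- 1 and Tom- 2. *Notch3* was seen in 11.4% and 12.1% of Tom+ and in 5% and 2.08% of Tom- cells. For *Jag2* the shares were 2.86% and 8.62% in Tom+ and 15% and 10.4% in Tom-, and for *Dll1* 0 and 3.45% in Tom+ and 10% and 4.17% in Tom-. *Notch2* was seen in 14.3%, 3.45%, 0% and 8.33% of cells, with overlapping groups. With 2 libraries against 2, an exact two-sided permutation test cannot go below 0.333, and *Notch3*, *Jag2* and *Dll1*, whose groups did not overlap, reached that value, with a Benjamini-Hochberg adjusted permutation p of 0.889 over the 8 members. For the other members the permutation p was 0.667 or 1. Shares were higher in both Tom+ libraries for 1 of the 7 detected members and for 20.3% of the genes with at least 10 UMIs, and lower for 2 members and for 13.8% of the genes.

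Between classes, the share of cells with *Jag2* was lower in *Krt10*-high cells of all 4 libraries. High minus low was -10, -16.3, -17.6 and -11.1 percentage points, with a mean of -13.8 ± 3.78 (SD, n = 4 libraries; exact two-sided sign-flip permutation p = 0.125, adjusted over the 8 members 0.5). Both Tom- differences rest on 0 of 3 high cells, and at full depth Tom- 1 went the other way, with 33.3% of high and 17.6% of low cells. Of the genes with at least 10 UMIs, 7.07% had a lower share in high cells of all 4 libraries and 3.35% a higher one. The share with *Notch3* was higher in high cells of all 4, by 2, 3.99, 33.3 and 33.3 points (mean 18.2 ± 17.5, SD, n = 4 libraries, exact sign-flip permutation p = 0.125, adjusted 0.5). The latter 2 differences rest on 1 of 3 high cells each. With 4 libraries 0.125 is the smallest p that sign flips allow. *Hes1* differed by 0, 16.6, 19.6 and 20 points, *Notch2* by 20, 5.41, 0 and 26.7, *Notch1* by 2, 0.386, 13.7 and -26.7, *Jag1* by -14, -0.129, 9.8 and 20, and *Dll1* by 0, 5.41, -11.8 and -4.44. *Hes1* and *Notch2* were never lower in the high class and were level in 1 library each, while *Notch1*, *Jag1* and *Dll1* went both ways. Over 20 other random thinnings the mean difference was 12.8 points for *Notch3*, -11.4 for *Jag2*, 17.3 for *Hes1* and 8.25 for *Notch2*. For *Dll1* it was -4.57, for *Jag1* 0.215 against 3.92 here, and for *Notch1* 1.18 against -2.64 here.

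**Figure D3:**
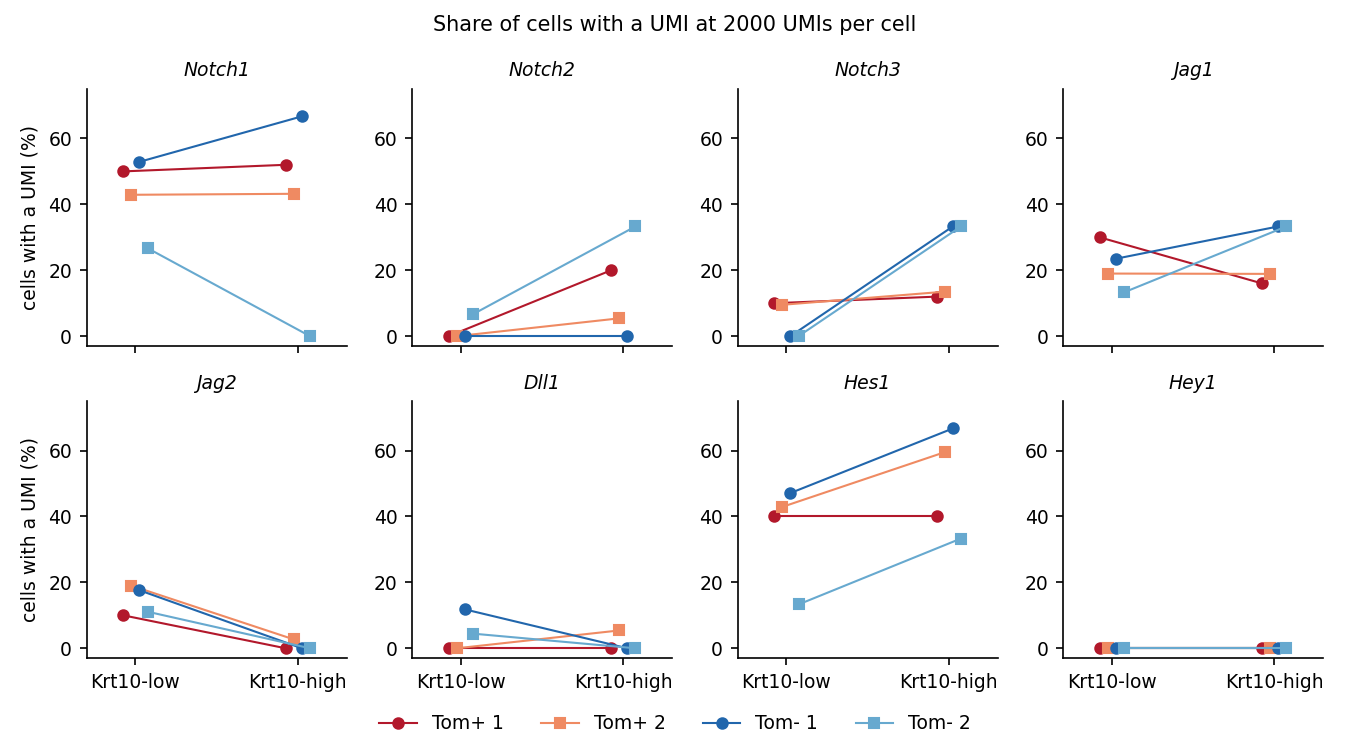
Share of cells with at least 1 UMI (vertical axis, percent) of each of the 8 members in *Krt10*-low and *Krt10*-high cells, after thinning every cell to 2000 UMIs; each line joins the classes of 1 library (red Tom+, blue Tom-). The *Jag2* lines all slope down and the *Notch3* lines all slope up, and each Tom- point in the high class stands for 3 cells.

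The share of a member's UMIs that lay in 3 cells differed between libraries. Such a share tends to rise with fewer UMIs and fewer cells, and it was not compared with a random spread. The 3 cells with the most *Jag1* held 85.7% of its 14 UMIs in Tom- 1 and 66.7% of its 27 UMIs in Tom- 2, against 50% in Tom+ 1 and 31.8% in Tom+ 2. For *Notch1* that share was between 22.7% and 36.4% in the 4 libraries. For *Hes1* it was 28.0% and 20.9% in Tom+ and 52.6% and 52.9% in Tom-, where fewer UMIs were found. A single cell held at most 10 UMIs of *Notch1*, 10 of *Hes1* and 9 of *Jag1* at full depth.

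**Figure D4:**
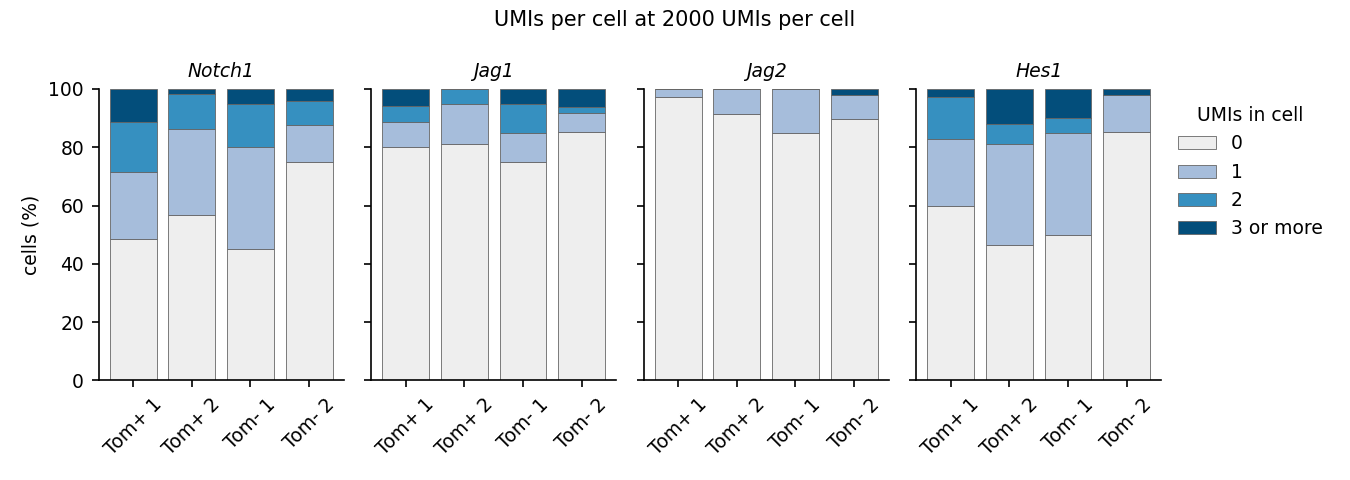
Percent of kept cells (vertical axis) with 0, 1, 2 or at least 3 UMIs of *Notch1*, *Jag1*, *Jag2* and *Hes1* in each library, after thinning to 2000 UMIs; bars sum to 100%. Cells without a UMI form the largest class for each of these genes in every library. Tom- 2 has the largest share of cells without *Notch1* (12 of 48 had it) and without *Hes1* (7 of 48).

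At the same depth, 38 of the 161 cells showed none of the members, 63 showed 1, 45 showed 2 and 15 cells showed more. The mean number seen was 1.40, 1.43, 1.60 and 0.792 per cell in Tom+ 1, Tom+ 2, Tom- 1 and Tom- 2. Tom+ exceeded Tom- by 0.22 members per cell (exact two-sided permutation p = 1), and *Krt10*-high exceeded *Krt10*-low cells by 0.3 ± 0.269 (SD, n = 4 libraries, exact sign-flip permutation p = 0.25).

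A receptor was seen in 21 of 35, 28 of 58, 11 of 20 and 17 of 48 cells, and a ligand in 8, 14, 8 and 13 of them. Both kinds were seen in the same well in 6, 5, 4 and 5 of the kept wells. Doublets were not called, so such a well need not hold a single cell. These counts were not compared with those expected from the separate shares. *Hes1* was seen in 47.6% of cells with a receptor and 28.6% of cells without in Tom+ 1, in 54.5% and 44.4% in Tom- 1, and in 23.5% and 9.68% in Tom- 2. In Tom+ 2 the order was the reverse, 46.4% and 60%. These shares describe what was captured, since a receptor transcript can be present and unseen at 2000 UMIs.

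The rest of the pathway was read from a list of 64 genes, all in the tables, with 2231 UMIs in all and 10 genes at 0. None passed the edgeR test in any comparison. In Tom+ versus Tom-, 19 were tested, 1 had an unadjusted p under 0.05, where 9.71% of all genes tested did, and their median log2 fold change was 0.10, against -0.01 over all genes tested. Between *Krt10* classes, 9 were tested, 2 had an unadjusted p under 0.05, where 16.5% of all genes did, and the median was 0.36, against -0.06. Among *Krt10*-low cells 7 were tested, 1 had an unadjusted p under 0.05, where 6.22% of all genes did, and the median was -0.38, against 0.00.

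The genes at 0 UMIs included the receptor *Notch4*, the ligands *Dll3* and *Dll4*, and the targets *Hes5* and *Hey2*. *Rbpj*, the DNA-binding partner of activated receptors, stood at 76.3 and 36.0 CPM in Tom+ and 61.3 and 70.4 CPM in Tom- (log2 fold change -0.38, SE 0.64, edgeR adjusted p = 0.956). *Psenen*, a γ-secretase subunit, was the cleavage gene nearest to the threshold, with a log2 fold change of -1.14 (SE 0.54) between *Krt10* classes and an edgeR adjusted p of 0.241. Its sign was the opposite in Tom+ versus Tom- (0.72, SE 0.44, edgeR adjusted p = 0.683). The same held among *Krt10*-low cells (0.96, SE 0.56, edgeR adjusted p = 0.817). *Cdkn1a*, which encodes the cell cycle inhibitor p21 and is a Notch target in keratinocytes, was the gene of the list with the smallest p in each comparison. It stood at 534 and 671 CPM in Tom+ and at 245 and 276 CPM in Tom-, with a log2 fold change of 1.16 (SE 0.30, edgeR adjusted p = 0.069), and at 0.85 (SE 0.32, edgeR adjusted p = 0.0888) between *Krt10* classes. *Nrarp*, a feedback inhibitor and Notch target, ranged over 95.4 and 36.0 CPM in Tom+ and 61.3 and 10.8 CPM in Tom-, with overlapping groups.

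The genes whose log2 CPM ran most alike were sought for the 4 members that passed the filter in Tom+ versus Tom-. The search used the 6 sums of a library and a *Krt10* class with at least 8 cells. Nearest to *Notch1* were *Usp7* (r = 0.96) and *Lmo4* (0.96). Nearest to *Jag1* were *Zfp36l1* (0.98), *Krt6a* (0.98) and *Cd24a* (0.97). Nearest to *Jag2* were *Smoc2* (1.00), *Itgb4* (0.99) and *Agrn* (0.99), and *Itgb4* encodes a subunit of the integrin that anchors basal cells. *Jag2* did not pass the filter between *Krt10* classes, and these 3 correlations rest on 1 to 14 of its UMIs per sum. Nearest to *Hes1* were *Nme1* (0.99), *Rpl19* (0.97) and *Hpgds* (0.96). With 6 points that share libraries and sort, picked as the highest among all genes tested, these correlations are descriptions without a test.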

How the data were processed

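RNA of single sorted cells was sequenced from the 5′ end (STRT chemistry, Fluidigm C1). The authors deposited whole-number UMI counts, not normalized, for each gene in each well. The submitters' processing notes name mm10 and GRCm38, and the aligner is not given in the sources used here. Well codes are chip positions, so all 96 recur in each library, and doublets were not called. Groups came from the sort labels. Wells with at least 2000 gene UMIs were kept. Counts were summed per library, or per library and *Krt10* class with library as covariate, and tested with edgeR 4.0.16 (TMM, filterByExpr, robust quasi-likelihood test, Benjamini-Hochberg adjustment over all genes tested, threshold 0.05) in R 4.3.3, after tests on simulated data. Shares used cells thinned to 2000 UMIs (seed 1) and exact permutation tests over libraries. The likeness used log2 CPM with a prior count of 2. Alternatives used DESeq2 1.42.0 and limma 3.58.1. Intervals cover counting error only, and depth per cell limits detection of the sparse members. The members and lists were chosen with earlier results of these data known. All 8 members are named, and the other genes named are from the pathway list, or the 3 most alike to a member, of which 1 is not reported here.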

Additional observations from a re-analysis of the deposited data

Results flagged for a closer look

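The share of cells with *Jag1* was lower in *Krt10*-high than in *Krt10*-low cells of both Tom+ libraries (mean difference -7.06 percentage points) and higher in both Tom- libraries (14.9 points). The difference between these shares was not tested. Tom+ 2 differed by only -0.129 points, each Tom- value rests on 1 of 3 high cells, and the test of the interaction on counts gave an edgeR adjusted p of 1.

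Wells with some but fewer than 2000 gene UMIs, which no comparison used, also held transcripts of the members. In these 54 wells, with 30056 UMIs in all, there were 17 UMIs of *Jag1*, 10 of *Notch1*, 9 of *Hes1*, 6 of *Notch2* and 5 of *Dll1*, each above the 3 counts that a count of 0 allows. The level of *Jag1* there was 566 CPM, and 9 of its 17 UMIs came from Tom- 2. Samples of 2 libraries per group were too few to look for libraries that stand apart.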

How the results depend on the processing

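Of 146 repeats of the members' log2 fold changes under other settings, 132 kept their direction and side of the threshold, 2 passed it and 12 changed sign. The 2 are *Hes1* in Tom+ versus Tom-, at 1.96 without Tom- replicate 1 and 1.38 with the run tag as a replicate block (edgeR adjusted p = 0.00348), so 1 member was called with the block and 0 to 1 with a library left out. The labels do not say that libraries with 1 run tag are paired, and their deviations correlated at 0.131. Leaving out a library moved *Notch1* between -0.10 and 0.68 in Tom+ versus Tom-, and between -0.32 and 0.72 among *Krt10*-low cells, where *Jag1* moved between -0.23 and 0.14. *Notch1* was negative without Tom+ 1 in both, and *Jag1* positive without Tom+ 1 or Tom- 1. The interaction then ranged from -0.77 to 1.47 for *Jag1* and from -0.57 to 1.07 for *Hes1*, turning without Tom- 1 for both and without Tom+ 2 for *Hes1* (0.09). Between *Krt10* classes, *Jag1* turned to 0.35 with thinned counts and *Notch1* to 0.01 in Tom+ libraries only. *Notch1* was also positive with 4 of the 20 other thinning seeds, at most 0.07; seeds enter the counts above as their mean. Among *Krt10*-low cells *Jag1* was 0.08 with limma-voom, 0.03 with no filter and 0.00 with the *Krt10* cut-off at 3 UMIs. None of these passed the test, and the cause was not tested.

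With a library left out, no member was called between *Krt10* classes, among *Krt10*-low cells or for the interaction (0 throughout), and the mean number of members per cell differed by -0.184 (without Tom- 2) to 0.624 (without Tom- 1) between sorts and by 0.208 to 0.401 between classes. At full depth these were 0.619 and 0.638, against 0.22 and 0.3. With thinned counts 1 member, not 3, was higher in both Tom+ libraries, and with the top 5% of cells left out 1, not 3, was lower. Where 1 library stood alone in its group, its spread was taken from the rest.

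Over all genes, calls in Tom+ versus Tom- numbered 37, 116 with the block, 8 with at least 5000 UMIs per cell and 23 to 62 with a library left out. Between *Krt10* classes they numbered 137, and 89 with DESeq2, 58 with no filter, 67 with thinned counts, 47 in Tom+ libraries, 77 and 71 with cut-offs at 3 and 12 UMIs and 67 to 129 with a library left out. Among *Krt10*-low cells they numbered 8, and 2 with DESeq2, with no filter or with the cut-off at 3, 4 with limma-voom, 0 with the block and 2 to 3 with a library left out. For the interaction they numbered 7, and 0 to 12 with a library left out. Leaving out cells with markers of other types, the libraries left out of the interaction and of the mean number of members, and the other settings for libraries that do not overlap were chosen after seeing the data.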
